A study of Rattus norvegicus with 4 samples.

Results

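The dual-specificity MAP kinase phosphatases are the 10 genes Dusp1, Dusp2, Dusp4, Dusp5, Dusp6, Dusp7, Dusp8, Dusp9, Dusp10 and Dusp16. They were chosen by symbol, and all 10 were found among the 17768 genes of the table. The family is complete by its textbook definition, so no gene was added or dropped for its value. The family was picked for description with values of the lv_Mettl3 and lv_nc libraries known, so its differences between these groups are given as a description, and the adjusted p-values printed beside them, which come from a fit over all genes, support nothing further.

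RNA was sequenced from 2 libraries titled lv_Mettl3 and 2 titled lv_nc, all from NRK-52E, a rat kidney epithelial cell line that the labels describe as proximal tubular. Per the labels, a stable line was made with a lentivirus carrying a murine Mettl3 cDNA in the vector pLVX-IRES-Puro, selected with 0.5 mg/ml puromycin and kept in 0.25 mg/ml puromycin with 10% serum, and all 4 samples carry the same protocol text and the treatment label untreated. Mettl3 encodes the catalytic subunit of the enzyme complex that writes N6-methyladenosine on RNA. What nc means is not spelled out, nor whether a group is 1 infected pool or clone, nor whether replicates came from separate cultures. The p-values therefore describe the spread among these 4 libraries alone, and that spread may be technical.

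MAP kinases are switched on when a kinase above them phosphorylates both a threonine and a tyrosine in their activation loop. MAP kinase phosphatases remove both phosphates and so switch the kinase off. The family falls into nuclear enzymes whose genes are induced by growth factors and stress, cytoplasmic enzymes that prefer the ERK kinases, and enzymes that prefer the stress kinases JNK and p38. Several of the genes are themselves induced by MAP kinase signalling and so form negative feedback loops. In kidney tubule cells these kinases respond to injury, growth factors and inflammatory signals.

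Promoter windows of 300 bases (250 before to 50 after the start that RefSeq gives, build GRCr8) were matched by symbol for 9 of the 10 genes, all but Dusp4. They are shown for Dusp6, the most abundant member in the lv_Mettl3 libraries and on average over all 4, for Dusp16, whose groups did not overlap and whose window holds 1 CRE half-site, and for Dusp1 and Dusp5, which hold the 2 motifs that are rarest among all promoters. The start used lay inside the RefSeq gene span by 1287 bases for Dusp8, 576 for Dusp10 and 102 for Dusp6. The windows of Dusp8 and Dusp10 thus lie wholly within the gene span, and they are kept in the counts below. Only bases upstream of the RefSeq gene span are printed. These are 148 bases for Dusp6 (chr7:35979354-35979501, plus strand) and 250 bases each for Dusp16 (chr4:169361509-169361758, minus strand), Dusp1 (chr10:17184603-17184852, plus strand) and Dusp5 (chr1:262543524-262543773, plus strand), 5′ to 3′. Capitals mark the cyclic AMP response element (CRE) half-site in Dusp16, the full CRE in Dusp1 and a pair of adjoining CArG boxes, the motif bound by serum response factor, in Dusp5.
Dusp6: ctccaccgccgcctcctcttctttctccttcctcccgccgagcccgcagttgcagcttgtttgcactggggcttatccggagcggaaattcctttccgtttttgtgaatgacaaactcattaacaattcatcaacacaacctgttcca
Dusp16: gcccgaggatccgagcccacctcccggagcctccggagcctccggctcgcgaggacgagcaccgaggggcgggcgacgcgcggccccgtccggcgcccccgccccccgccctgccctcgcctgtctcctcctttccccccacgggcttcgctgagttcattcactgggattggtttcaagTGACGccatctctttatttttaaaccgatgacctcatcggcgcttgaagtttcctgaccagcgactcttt
Dusp1: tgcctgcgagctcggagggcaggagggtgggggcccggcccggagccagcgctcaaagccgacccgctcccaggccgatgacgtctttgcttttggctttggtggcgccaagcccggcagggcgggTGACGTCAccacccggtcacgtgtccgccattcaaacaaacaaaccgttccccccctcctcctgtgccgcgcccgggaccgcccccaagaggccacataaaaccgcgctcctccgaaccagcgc
Dusp5: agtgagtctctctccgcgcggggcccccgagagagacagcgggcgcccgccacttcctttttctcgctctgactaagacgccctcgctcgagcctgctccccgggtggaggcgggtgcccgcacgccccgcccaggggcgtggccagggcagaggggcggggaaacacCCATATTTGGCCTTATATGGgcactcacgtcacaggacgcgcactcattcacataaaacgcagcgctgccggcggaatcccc

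Both strands of the 300 bases were searched for 7 motifs. The full CRE, TGACGTCA, was in 1 window, that of Dusp1, and in 1.83% of 33469 promoters. The CArG box was in 1 window, that of Dusp5, and in 1.64% of promoters. The CRE half-site TGACG, which also lies within the full CRE, was in the windows of Dusp1, Dusp2, Dusp5 and Dusp16 and in 21.2% of promoters. The AP-1 site TGANTCA was in 0 of the 9 windows and in 7.33% of promoters, and the ETS site CCGGAA was in 1 window, that of Dusp5, and in 14.95% of promoters. The GC box GGGCGG was in 7 of the 9 windows and in 33.1% of promoters. The CCAAT box (CCAAT) was in the windows of Dusp6, Dusp7, Dusp10 and Dusp16 and in 37.5% of promoters. The 9 windows were rich in G and C, at 56.3% to 81.0% with a median of 67.0%, where the median of all promoters was 51.7%. Their ratio of observed to expected CpG had a median of 0.776, against 0.392 over all promoters. The printed stretch of Dusp6 holds none of these motifs, which says only that the letters are not in it.

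Recovered gene reads were 15068898 and 15483756 in lv_Mettl3 replicates 1 and 2, and 16133328 and 16622255 in lv_nc replicates 1 and 2. Expression is given as normalized read counts, that is, gene reads divided by 1 size factor per library, with means ± SD (n = 2 libraries per group). Mettl3 itself had 757 and 699.6 in lv_Mettl3 and 719 and 767 in lv_nc, so the titled gene did not separate the groups (limma log2 fold change -0.03, SE 0.11), and each direction is that of the labelled libraries. The fate of reads from the murine cDNA in the authors' counting was not analysed here. The labelled cell type was weakly marked: of 12 proximal tubule markers 6 were listed, and 2 were above 10 in every library. Lrp2 and Aqp1 were under 10 in all 4, as was the epithelial cadherin gene Cdh1. Of 6 epithelial markers 4 were listed, and 2 were above 10 in every library. The 6 tubule markers listed summed to 3342 to 3837 in lv_Mettl3 and 2480 to 2601 in lv_nc, and the 4 epithelial markers listed to 40679 to 44375 in lv_Mettl3 and 41288 to 43969 in lv_nc. Summed fibroblast and smooth muscle markers were 4878 to 5592 in lv_Mettl3 and 13804 to 17925 in lv_nc, with 7 of 10 listed, 6 above 10 in every library and none of the 7 at 0 in all 4, and Pdgfra, a defining fibroblast receptor, under 10 throughout. Their part in the differences below was not tested, and in these bulk libraries fewer cells of a type and less RNA per cell cannot be told apart. Summed leukocyte markers (4 of 7 listed) were 30.7 to 66.1 in lv_Mettl3 and 35.2 to 47.1 in lv_nc, and endothelial markers (3 of 5 listed) 15.9 to 37.2 in lv_Mettl3 and 24.4 to 27.7 in lv_nc.

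Phosphatase mRNA was higher in the lv_Mettl3 libraries, and the difference was uneven across the family. Dusp4 and Dusp6 were the 2 members with more than a 2-fold ratio of group means, Dusp8 and Dusp16 followed, and Dusp1, Dusp5 and Dusp7 differed by 1.235-fold at most. Dusp10 overlapped between groups, and Dusp2 and Dusp9 were at or near 0. Of the 8 members tested, 7 had both lv_Mettl3 libraries above both lv_nc libraries, as did 23.5% of the 16391 genes tested, and 0 had the opposite order, as did 21.5% of genes. The limma log2 fold change was above 0 for 7 of the 8 members and for 50.7% of all genes tested. Since the family was chosen with these values known, nothing is read from that share.

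**Figure D1:**
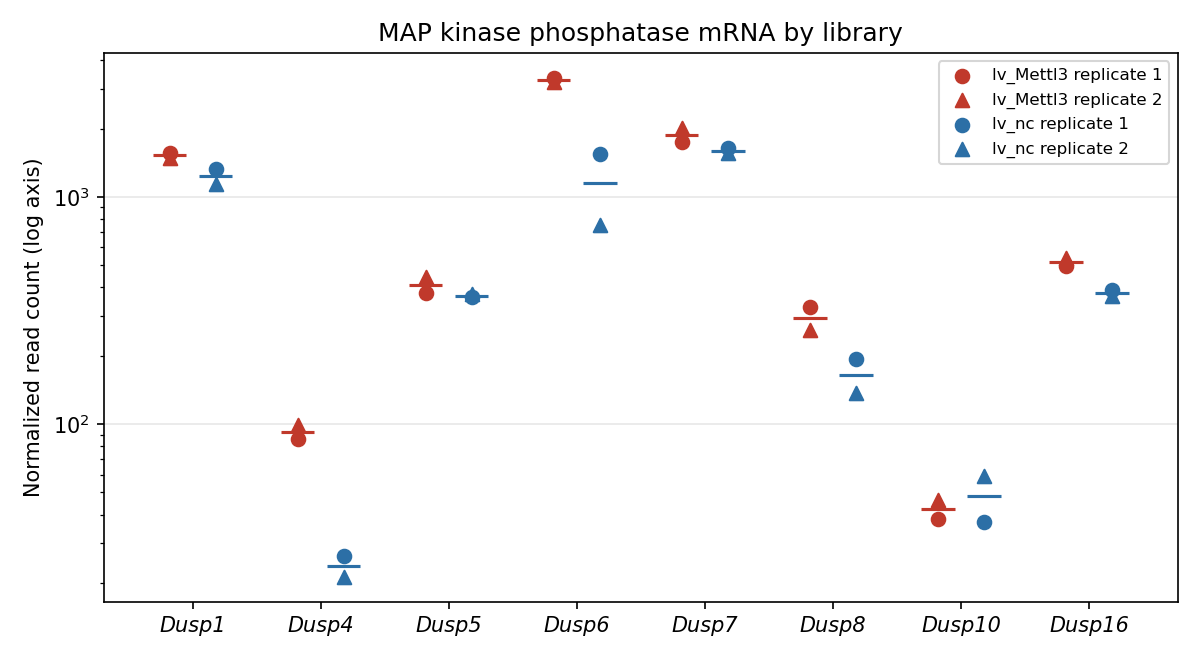
Normalized read counts (log axis) of the 8 members tested, with lv_Mettl3 libraries in red on the left and lv_nc libraries in blue on the right of each gene. Points are libraries and lines group means. The groups lie apart for 7 genes and overlap for Dusp10, and the gap is widest for Dusp4 and Dusp6.

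By the test used across the table, limma on log2(value + 1) with adjustment over all genes at 0.05, 0 of the 8 members were called, where 0.0183% of all genes were. At an unadjusted p under 0.05 limma counted 5 members, all higher, where 10.5% of all genes passed and 5.54% were higher. DESeq2 counted 4 (7.44% of all genes, 3.69% higher) and the edgeR quasi-likelihood test 5 (11.8% of all genes, 5.99% higher) at that threshold. DESeq2 on the recovered reads called 1 of the 8 members given an adjusted p, Dusp4, which rose, where 2.52% of all genes given one were called, 1.45% higher and 1.07% lower. EdgeR called 0, where it called 0.0381% of genes. The median limma log2 fold change of the 8 members was 0.38, and that of all 16391 genes tested was 0.01 (SD 0.61).

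Among the inducible nuclear phosphatases, Dusp4 had the largest difference of the family. Dusp4 acts on ERK and JNK kinases in the nucleus (ENSRNOG00000011921, chromosome 16, 61078175 to 61091169 in the authors' file, whose build is not given in the sources used here). It had 85.9 and 99.2 in lv_Mettl3 replicates 1 and 2, and 26.4 and 21.2 in lv_nc replicates 1 and 2. The lower lv_Mettl3 library was 3.26 times the higher lv_nc library, so the groups lay well apart. The means were 92.5 ± 9.42 in lv_Mettl3 and 23.8 ± 3.64 in lv_nc, a ratio of 3.89. The limma log2 fold change was 1.92 (SE 0.30, limma adjusted p = 0.320), and that of DESeq2 was 1.96 (SE 0.51, DESeq2 adjusted p = 0.00925).

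Dusp4 was also a low-count gene. It rested on 81 and 96 reads in lv_Mettl3 and 27 and 23 reads in lv_nc. Exact two-sided Poisson intervals at 95%, which cover counting error only, were 68.2 to 107 and 80.4 to 121 normalized counts in lv_Mettl3, and 17.4 to 38.4 and 13.5 to 31.9 in lv_nc, so those of the groups did not meet. Dusp4 was the only member in the shorter table the authors deposited, which holds 167 genes, those with an adjusted p under 0.05 and at least a 2-fold change. Dusp4 has the same adjusted p there as in the DESeq2 fit here, 0.00925, so its place there is no separate support. Its DESeq2 call ended without any 1 of 3 libraries: without lv_Mettl3 replicate 1 or 2 its DESeq2 adjusted p was 0.988 or 1.00, and without lv_nc replicate 2 it was 0.202. Without lv_nc replicate 1 it was 0.0173. Its DESeq2 log2 fold change in these fits stayed between 1.81 and 2.12.

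Dusp1 and Dusp5 were abundant and differed little. Dusp1, the immediate early phosphatase that acts on JNK, p38 and ERK (ENSRNOG00000003977, chromosome 10, 16970626 to 16973418), had 1570 and 1480 in lv_Mettl3 and 1330 and 1140 in lv_nc. The higher lv_nc library was 1.11-fold below the lower lv_Mettl3 library, a gap smaller than the 1.17-fold difference between the lv_nc libraries. The limma log2 fold change of Dusp1 was 0.31 (SE 0.12, limma adjusted p = 0.471). Dusp5, a nuclear phosphatase selective for ERK (ENSRNOG00000014061, chromosome 1, 274245184 to 274258595), had 376 and 442 in lv_Mettl3 and 361 and 375 in lv_nc. Its groups all but touched, with the lower lv_Mettl3 library 1.00 times the higher lv_nc library (log2 fold change 0.15, SE 0.14, limma adjusted p = 0.707). Dusp2, best known from activated leukocytes, was at 0 and 1.03 in lv_Mettl3 and 0 and 0.923 in lv_nc, at most 1 read per library. With 3 reads taken as the one-sided 95% limit that a count of 0 allows, the limits were 3.18 normalized counts in lv_Mettl3 replicate 1 and 2.93 in lv_nc replicate 1, so no difference was detectable at this depth.

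Among the cytoplasmic ERK-selective phosphatases, Dusp6 was the most abundant member of the family in lv_Mettl3 and the one whose lv_nc libraries differed most. Dusp6 binds and inactivates ERK, and its gene is induced by ERK signalling (ENSRNOG00000023896, chromosome 7, 41475163 to 41479392). It had 3345 and 3221 in lv_Mettl3 replicates 1 and 2, and 1547 and 749.6 in lv_nc replicates 1 and 2. The lv_Mettl3 libraries agreed within 1.04-fold and both were at least 2.08 times the higher lv_nc library, while the lv_nc libraries differed 2.06-fold from each other. Of 10051 genes with a mean of at least 100, 1.96% differed as much between the lv_nc libraries, where the median gene differed 1.16-fold. The means of Dusp6 were 3283 ± 87.6 in lv_Mettl3 and 1148 ± 563.5 in lv_nc, a ratio of 2.86.

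The size of the Dusp6 difference therefore depended on which lv_nc library was kept. Its limma log2 fold change was 1.61 (SE 0.34, limma adjusted p = 0.381) over all libraries, 2.13 without lv_nc replicate 1 (limma adjusted p = 0.00679) and 1.09 without lv_nc replicate 2 (limma adjusted p = 0.0366). DESeq2 gave 1.52 (SE 0.50, DESeq2 adjusted p = 0.0815) over all libraries and so did not call it. Without lv_Mettl3 replicate 1 or 2, the DESeq2 log2 fold change was 1.48 or 1.54 (DESeq2 adjusted p = 0.0311 or 0.0166). Without lv_nc replicate 1 or 2 it was 2.13 or 1.08 (DESeq2 adjusted p = 5.76e-50 or 1.57e-13). In fits without 1 library, only the 1 group that still has 2 libraries shows a gene's own residual spread. Both tests draw that spread toward the trend over all genes, and assume that the lone library varies alike.

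Dusp7, a cytoplasmic relative of Dusp6 (ENSRNOG00000010789, chromosome 8, 115069095 to 115076130), had 1744 and 2007 in lv_Mettl3 and 1643 and 1561 in lv_nc. Its groups lay 1.06-fold apart, less than the 1.15-fold between the lv_Mettl3 libraries. The log2 fold change was 0.22 (SE 0.11, limma adjusted p = 0.516). The X-linked Dusp9, also a phosphatase of this class, was at 0 and 0 in lv_Mettl3 and 0 and 1.85 in lv_nc, which is 2 reads in 1 of the 4 libraries. By the same one-sided limit its 0 counts allow up to 3.18 normalized counts in lv_Mettl3 replicate 1, so no fold change is given.

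**Figure D2:**
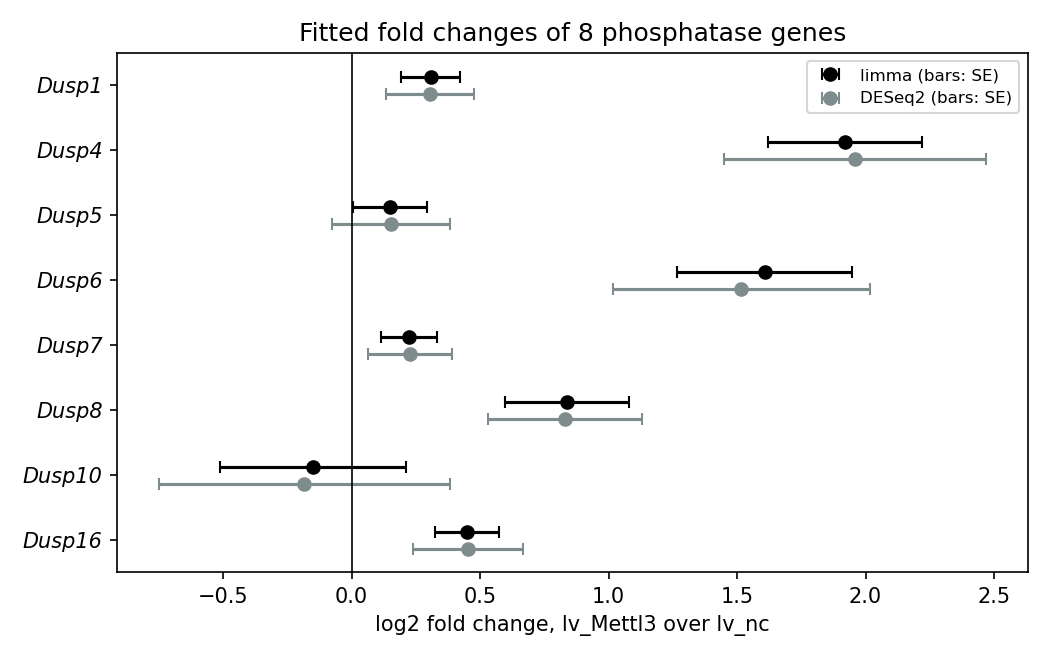
Fitted log2 fold changes of lv_Mettl3 over lv_nc for the 8 members tested (x axis), from limma on log2(value + 1) in black and DESeq2 on recovered reads in grey, with bars of 1 SE. Dusp4 (1.92 in limma) and Dusp6 (1.61) stand farthest from 0, and the bars of Dusp10 in both fits and of Dusp5 in DESeq2 span 0.

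The phosphatases that prefer JNK and p38 split between higher and overlapping values. Dusp8 (ENSRNOG00000029394, chromosome 1, 215030429 to 215033460) had 328 and 259 in lv_Mettl3 and 193 and 137 in lv_nc. Every lv_Mettl3 library exceeded every lv_nc library, by at least 1.34-fold, while libraries of a group differed by 1.26-fold in lv_Mettl3 and 1.42-fold in lv_nc. Its means were 293.5 ± 48.2 in lv_Mettl3 and 165 ± 40.2 in lv_nc. The fitted log2 difference was 0.84 (SE 0.24, limma adjusted p = 0.447; DESeq2 adjusted p = 0.139). Without lv_nc replicate 1 the Dusp8 values passed both tests, at a log2 fold change of 1.09 in limma (adjusted p = 0.0485) and 1.10 in DESeq2 (adjusted p = 0.0229), a fit that called 1431 genes of the table in limma and 1547 in DESeq2. Without lv_nc replicate 2 the limma log2 fold change of Dusp8 was 0.59 (limma adjusted p = 0.431; DESeq2 adjusted p = 1.00). Without lv_Mettl3 replicate 1 or 2 it was 0.67 or 1.01 (limma adjusted p = 1.00 or 0.651; DESeq2 adjusted p = 1.00 for both).

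Dusp16, which shuttles between nucleus and cytoplasm (ENSRNOG00000006628, chromosome 4, 168472412 to 168517177), had 497 and 540.5 in lv_Mettl3 and 391 and 368 in lv_nc. Its libraries agreed within 1.09-fold in lv_Mettl3 and 1.06-fold in lv_nc, and the groups lay 1.27-fold apart. The limma log2 fold change was 0.45 (SE 0.13, limma adjusted p = 0.438), and it lay between 0.39 and 0.51 without any 1 library. Dusp10 (ENSRNOG00000004003, chromosome 13, 104284660 to 104321455) was the member without a separation, with 38.2 and 46.5 in lv_Mettl3 and 37.1 and 59.1 in lv_nc. Both lv_Mettl3 values lay between the lv_nc values. The limma log2 fold change was -0.15 (SE 0.36, limma adjusted p = 0.894) and became 0.18 without lv_nc replicate 2.

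**Figure D3:**
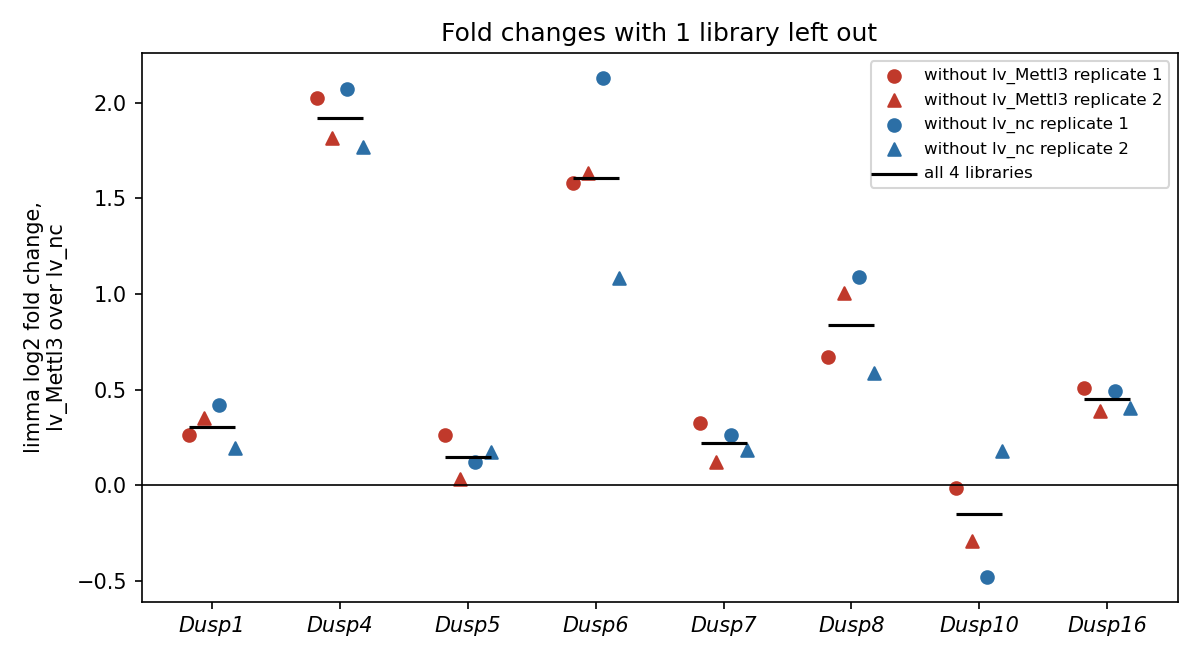
Limma log2 fold changes of lv_Mettl3 over lv_nc for the 8 members tested (y axis), with 1 library left out in turn (points) and with all 4 libraries (black lines). Dusp6 runs from 1.09 to 2.13 according to which lv_nc library is left out, Dusp4 stays between 1.77 and 2.07, and Dusp10 changes sign.

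The 4 libraries were not alike in these genes. In 6 of the 8 members tested, lv_nc replicate 2 was the lowest library, as it was in 32.6% of all genes tested. In the other 2, Dusp5 and Dusp10, lv_nc replicate 1 was the lowest, as in 22.3% of all genes. The lv_Mettl3 replicates 1 and 2 were the lowest in 0 of the 8 members, where each was the lowest in 24.1% and 21.0% of all genes. Dusp6 and Dusp8 had the widest gaps between the lv_nc libraries among members with a mean of at least 100.

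Levels between genes were compared as normalized counts per kilobase of the gene length given in the authors' file. Averaged over the 4 libraries the order was Dusp6 (804.5 per kb), Dusp1 (713), Dusp7 (556), Dusp16 (189), Dusp5 (161), Dusp8 (117), Dusp10 (16.7), Dusp4 (14.6), Dusp2 (0.301) and Dusp9 (0.178). Some neighbours in that order were not separated: Dusp6 lay above Dusp1 in both lv_Mettl3 libraries and below it in both lv_nc libraries, and Dusp10 lay below Dusp4 in both lv_Mettl3 libraries and above it in both lv_nc libraries. Dusp16 lay above Dusp5 in 3 of 4 libraries, and Dusp5 above Dusp8 in 3 of 4. Dusp1 above Dusp7, Dusp7 above Dusp16, Dusp8 above Dusp10 and Dusp4 above Dusp2 held in all 4. Among abundant members, the top gene was thus Dusp6 in the lv_Mettl3 libraries and Dusp1 in the lv_nc libraries.

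Dusp6 accounted for most of the difference in the family sum. The 10 members summed to 7985 and 8097 normalized counts in lv_Mettl3 and 5529 and 4414 in lv_nc, a ratio of means of 1.62. Without Dusp6 the sums were 4640 and 4876 in lv_Mettl3 and 3982 and 3664 in lv_nc, a ratio of 1.24. Of the summed level per kilobase, Dusp6 took 38.5% and 37.0% in lv_Mettl3 and 25.4% and 15.4% in lv_nc. Dusp1 took 25.7% and 24.2% in lv_Mettl3 and 31.1% and 33.3% in lv_nc, so the share of Dusp1 was smaller in lv_Mettl3 although its level was not lower. Dusp4, with the largest fold change, took at most 0.789% of the sum in any library.

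**Figure D4:**
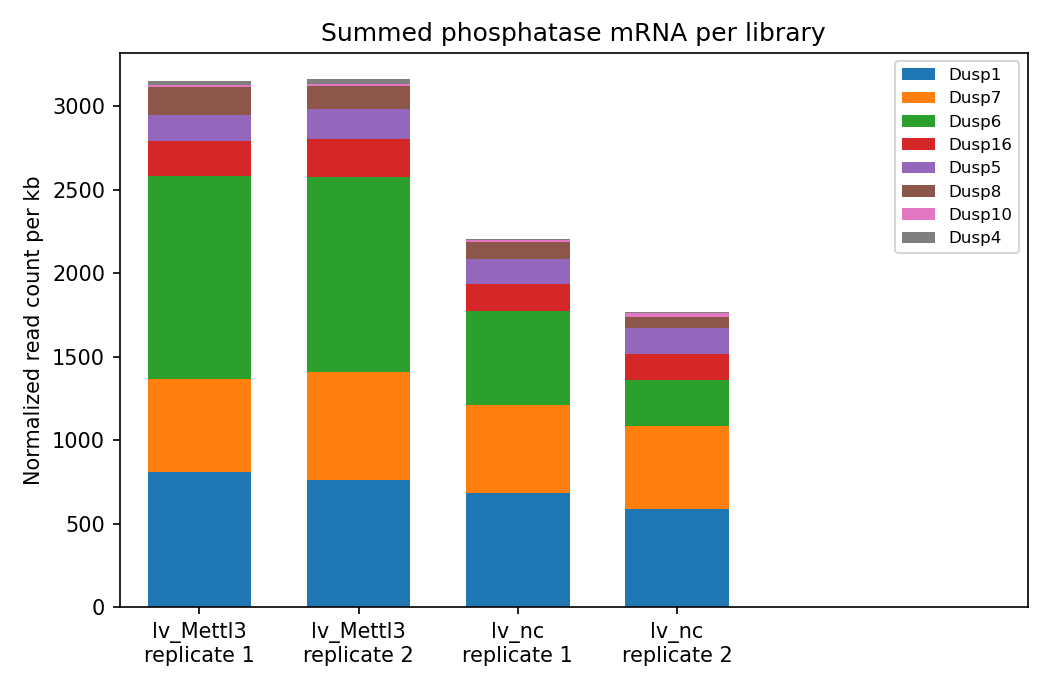
Stacked normalized read counts per kb (y axis, from 0) of 8 members in each library, lv_Mettl3 on the left and lv_nc on the right. The Dusp6 segment is 1215 and 1170 per kb in lv_Mettl3 and 562 and 272 in lv_nc, and the Dusp1 and Dusp7 segments, the largest beside it, differ by 1.235-fold and 1.17-fold in group mean. Dusp2 and Dusp9 are too low to be seen and are left out.

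Genes with the profile most like that of Dusp6 over the 4 libraries were sought among 9215 named genes with a mean of at least 100, by the root mean square difference of centred log2 values. The 5 closest were Etv4 (0.11), Tnfsf18 (0.17), Etv5 (0.17), Cyp26b1 (0.20) and Myc (0.22). Etv4, an ETS transcription factor, had 1502 and 1529 in lv_Mettl3 and 749 and 411 in lv_nc, with the lower of its lv_nc values in replicate 2, as for Dusp6. For Dusp4 the 5 closest were Csf3 (0.13), Slc51a (0.13), Etv5 (0.15), Mylk (0.16) and Cyp26b1 (0.16). Over 4 libraries many genes can share such an order, and the likeness is a description only.

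The rest of the MAP kinase pathway was described from 7 lists of textbook membership, drawn up with earlier results of these data known, with 108 genes tested in all. Limma called 0 of the 108, where it called 0.0183% of all genes, and edgeR called 0, where it called 0.0381%. At an unadjusted p under 0.05 limma counted 18 higher and 4 lower, where 10.5% of all genes passed and 5.54% were higher. At that threshold edgeR counted 26, where 11.8% of all genes passed. Some of the 108, such as Mapk4 and Mapk12, were not tested by edgeR and were given no DESeq2 adjusted p. DESeq2 called 10, all higher, where 2.52% of all genes given an adjusted p were called, 1.45% higher. Of these 10, 7 lay in the list of ERK feedback and ERK-induced genes. In that list of 17 genes, 13 had both lv_Mettl3 libraries above both lv_nc libraries and 2 had both below, where 23.5% and 21.5% of all genes did, and the median limma log2 fold change was 0.59. The 3 genes with a negative fold, named after their values were seen, were Fos, Etv1 and Egr1. Over all 4 libraries neither limma nor DESeq2 called them. Fos, an AP-1 subunit gene, had 175 and 129 in lv_Mettl3 and 200.3 and 391 in lv_nc (limma log2 fold change -0.89, SE 0.37, limma adjusted p = 0.488; DESeq2 adjusted p = 0.153). Etv1 had 11.7 and 10.3 in lv_Mettl3 and 19.5 and 15.7 in lv_nc, and Egr1 overlapped, with 105 and 95.1 in lv_Mettl3 and 88.9 and 248 in lv_nc. The median was 0.38 for the phosphatases and 0.01 for all genes tested.

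The genes of that list named by rule were Etv5, Fosl1, Etv4 and Spry2, all of which rose by DESeq2. Etv5 had 938 and 997 in lv_Mettl3 and 356 and 229 in lv_nc (DESeq2 log2 fold change 1.73, SE 0.24, DESeq2 adjusted p = 1.69e-10; limma adjusted p = 0.267). Fosl1, an AP-1 subunit gene, had 655 and 864 in lv_Mettl3 and 326 and 256 in lv_nc. Spry2, a feedback inhibitor of receptor tyrosine kinases, had 665 and 638 in lv_Mettl3 and 353 and 272 in lv_nc. For Fosl1 and Spry2 each lv_Mettl3 library was above each lv_nc library, and their limma adjusted p-values were 0.307 and 0.320. The DESeq2 calls of Etv4 and Spry2 ended without lv_Mettl3 replicate 1 (DESeq2 adjusted p = 0.0652 and 0.655) or replicate 2 (0.0706 and 0.477), and that of Fosl1 without lv_Mettl3 replicate 2 (0.298). In these fits the DESeq2 log2 fold changes of Etv4 were 1.395 and 1.37 (1.39 over all libraries). Those of Spry2 were 1.025 and 1.09 (1.06), and that of Fosl1 was 1.17 (1.38). Without lv_nc replicate 1 or 2 they moved more, to 1.88 or 1.01 for Etv4, 1.255 or 0.88 for Spry2 and 1.57 or 1.21 for Fosl1. The DESeq2 log2 fold change of Etv5 was 2.08 or 1.44 without lv_nc replicate 1 or 2, and its call held without any 1 library.

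In the list of MAP kinases, neither limma nor DESeq2 called any of 11 ERK, JNK and p38 genes over all 4 libraries. Their median limma log2 fold change was 0.03 (range -1.43 to 1.06). Both ends of that range rest on few reads. Mapk4, the lowest, had 5 and 0 reads in lv_Mettl3 and 1 and 24 in lv_nc. Mapk12, the highest, had 3 and 2 reads in lv_Mettl3 and 2 and 0 in lv_nc. Mapk3, which encodes an ERK, had 2854 and 3128 in lv_Mettl3 and 3314 and 4625 in lv_nc, and Mapk6, an atypical MAP kinase, 4593 and 4412 in lv_Mettl3 and 4165 and 3552 in lv_nc. The limma log2 fold change of Mapk3 was -0.39, and it was -0.63 without lv_nc replicate 1 and -0.15 without lv_nc replicate 2. For Mapk6 it was 0.23, and 0.34 and 0.11 without lv_nc replicates 1 and 2. Of 21 kinases above them, the median was 0.02 and DESeq2 called 1, Map3k6, where 2.52% of all genes given an adjusted p were called. Map3k6 rose (355 and 477 in lv_Mettl3, 260 and 138 in lv_nc, DESeq2 adjusted p = 0.0363, limma adjusted p = 0.452). That call held without lv_nc replicate 1 and ended without lv_Mettl3 replicate 1 or 2 or lv_nc replicate 2 (DESeq2 adjusted p = 0.685, 1.00 or 0.594). Map2k3 is listed under 2 identifiers and was left out. Of 17 scaffold and RAS genes both tests called 0 over all 4 libraries (median 0.06). Shc1 had 5759 and 6021 in lv_Mettl3 and 5406 and 6211 in lv_nc. Ptpn11 had 4024 and 4199 in lv_Mettl3 and 4384 and 3379 in lv_nc.

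Over all 4 libraries limma and DESeq2 called none of the phosphatases listed outside the family. The 10 atypical dual-specificity phosphatases tested, which lack the kinase-binding domain of the MAP kinase phosphatases, had a median of -0.08. Of these 10, 2 had lv_Mettl3 above lv_nc without overlap and 2 below, near the 23.5% and 21.5% of all genes that did. Those above were Dusp3 and Styx, and those below were Dusp19 and Dusp22, named after their values were seen. Styx had 455 and 475 in lv_Mettl3 and 333 and 322 in lv_nc (limma log2 fold change 0.50, SE 0.12, limma adjusted p = 0.399). Dusp3 had 2170 and 2066 in lv_Mettl3 and 1966 and 1311 in lv_nc. Without lv_nc replicate 1 its log2 fold change was 0.69 in both limma and DESeq2, and without lv_nc replicate 2 it was 0.11 in limma. Dusp18 had 477 and 473 in lv_Mettl3 and 425 and 619 in lv_nc. Of 9 tyrosine and serine/threonine phosphatases that act on MAP kinases, such as the subunits of protein phosphatase 2A encoded by Ppp2r1a and Ppp2cb, the median was 0.01. Ppp2r1a had 5145 and 5127 in lv_Mettl3 and 4985 and 5020 in lv_nc, and Ppp2cb had 3220 and 3179 in lv_Mettl3 and 3158 and 3174 in lv_nc. The difference between the phosphatase families was not tested.

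Among 23 substrate kinases and transcription factors, DESeq2 called 2, both higher, and limma 0 (median 0.01). Of all genes given an adjusted p by DESeq2, 1.45% were called higher. Srf, which encodes serum response factor, had 1819 and 2137 in lv_Mettl3 and 1282 and 750.5 in lv_nc (DESeq2 log2 fold change 0.96, SE 0.23, DESeq2 adjusted p = 0.00348; limma adjusted p = 0.419). Jun, an AP-1 subunit gene and JNK substrate, had 1980.5 and 2256 in lv_Mettl3 and 1438 and 1267.5 in lv_nc (DESeq2 adjusted p = 0.00817; limma adjusted p = 0.372). In both genes the lv_Mettl3 libraries lay above the lv_nc libraries, with lv_nc replicate 2 lowest. Without lv_nc replicate 1 or 2 the DESeq2 log2 fold change was 1.395 or 0.62 for Srf and 0.74 or 0.55 for Jun. Both DESeq2 calls ended without lv_Mettl3 replicate 1 (DESeq2 adjusted p = 0.296 for Srf and 0.752 for Jun) or replicate 2 (1.00 for both), at log2 fold changes of 1.07 and 0.73, or 0.84 and 0.55.

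**Figure D5:**
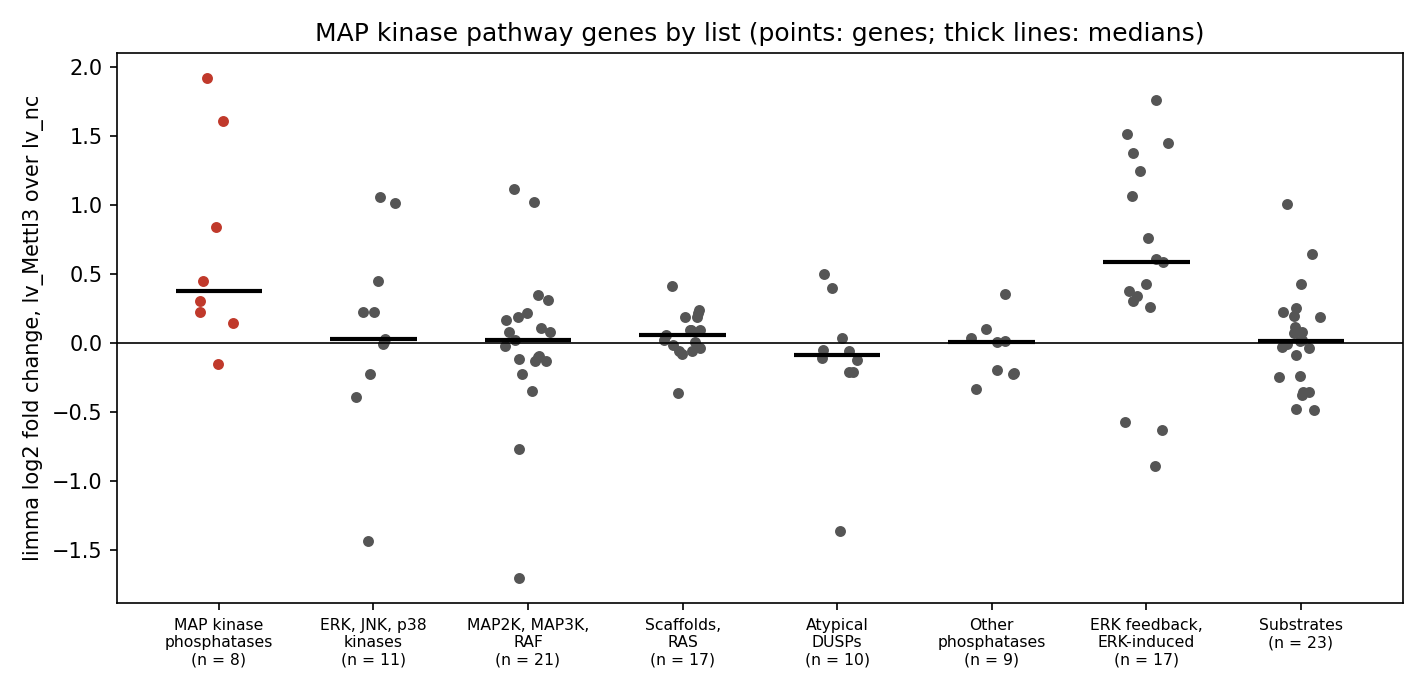
Limma log2 fold changes of lv_Mettl3 over lv_nc (y axis) for the 8 phosphatases tested (red) and the 7 pathway lists (grey), with points for genes and thick lines for medians. The medians of the phosphatases (0.38) and of the ERK feedback list (0.59) lie above those of the other lists, which run from -0.08 to 0.06.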

How the data were processed

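RNA of 4 NRK-52E libraries (2 lv_Mettl3, 2 lv_nc, grouped and numbered by title) was sequenced. Per the submitters' processing notes, CASAVA 1.4 and HISAT2 were used. The sources used here do not give the counter, genome build, annotation or strandedness, so reads of overlapping antisense genes cannot be told apart from those of the phosphatase genes. The library columns hold a signal, gene read counts that the authors scaled by a size factor for each library. Allowing 0.001 reads of error, 100% of values were whole multiples of the library's smallest positive value, from which reads were recovered. The authors' means are the same signal averaged over each group. The sources used here do not name the test behind the log2 fold changes and p-values deposited by the authors. For the 8 members given an adjusted p, these values closely match those of DESeq2 on the recovered reads. For Dusp6 both log2 fold changes were 1.52 and both adjusted p-values 0.0815. The deposited values are therefore not separate from the DESeq2 results here.

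Limma 3.58.1 with a mean-variance trend was the test planned for values given as normalized and not raw counts. Although whole reads could be recovered, it was kept as the main test. It was fitted to log2(value + 1) for genes that reached 1 in at least 2 libraries. That scale understates the change of low genes. DESeq2 1.42.0 and edgeR 4.0.16 on recovered reads were alternatives, and all were tested on simulated data. Both DESeq2 and limma results are described, because limma called 3 genes in all, DESeq2 318 and edgeR 5. Benjamini-Hochberg adjustment was over all genes. Members and lists were chosen with earlier results of these data known. Named genes were the members, Mettl3, up to 4 called genes per list (limma, or else DESeq2) or otherwise the 2 most abundant, and the 5 genes most like 2 members. Promoters are from RefSeq (GRCr8). R was 4.3.3 and Python 3.11.15.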

Additional observations from a re-analysis of the deposited data

How the results depend on the processing

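Over the whole table limma called 3 genes. The count was 5 with at least 10 in all 4 libraries, 5 with edgeR, 24 with robust empirical Bayes, 318 with DESeq2 (183 higher, 135 lower), and 0 with a pseudocount of 0.1 in limma (1683 at an unadjusted p under 0.05). Without 1 library it was 28 to 1431 in limma (highest without lv_nc replicate 1), and in DESeq2 56 and 61 without lv_Mettl3 replicates 1 and 2, 1547 without lv_nc replicate 1 and 217 without lv_nc replicate 2. Members called by limma numbered 0, against 1 with DESeq2, 0 to 3 without 1 library in limma and 1 to 3 in DESeq2. Those called without lv_nc replicate 1 were Dusp4, Dusp6 and Dusp8 in both tests, and the one called without each other library, where any was, was Dusp6. Of the pathway genes limma called 0, against 10 with DESeq2, 1 to 21 in limma and 1 to 23 in DESeq2 across the fits without 1 library. Fewer samples enter these fits, and the cause of the other shifts was not tested.

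Of 144 values of the 8 members tested under the alternatives, 131 kept their direction and side of the threshold, 11 kept their direction and passed it, and 2 reversed, both Dusp10. Without 1 library Dusp10 ran from -0.48 to 0.18 in both tests, and Mettl3 from -0.086 to 0.027 in limma and -0.091 to 0.024 in DESeq2 (0.014 without lv_nc replicate 2). Shc1 ran from -0.077 to 0.12 in limma and -0.080 to 0.12 in DESeq2 (-0.015 without lv_Mettl3 replicate 2). Ptpn11 ran from -0.093 to 0.28 in limma and -0.097 to 0.28 in DESeq2, and Dusp18 from -0.38 to 0.16 in limma and -0.39 to 0.16 in DESeq2. With library size scaling Shc1 was -0.017, Ppp2r1a -0.0019 and Ppp2cb -0.025. Same-numbered libraries deviated from their group means with a correlation of 0.325 over 10051 genes, but 2 pairs with no label of a shared origin share only a number. The fit with a replicate block called 3 genes over the table, 0 members and 0 pathway genes. Depth limits Dusp2, Dusp4, Dusp9 and Dusp10, each under 100 reads per library.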
